A study of Homo sapiens with 4 samples.

Results

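The replication-dependent histone genes described here are 10 of the 60676 Ensembl gene IDs that each library lists. They were chosen by a fixed list of IDs, namely the linker histone genes H1-2, H1-3, H1-4 and H1-5 and the core histone genes H2AC6, H2BC4, H2BC5, H2BC12, H2BC21 and H4C3. The names are those supplied with the list, because the count files hold IDs alone. All 10 IDs were present in all 4 libraries.

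The RNA came from MiaPaCa, an established human pancreatic cancer cell line, in which either variant 1 or variant 2 of SRP9 was expressed with a nuclear localisation signal and a 3xFLAG tag from an IRES vector that also encodes the green fluorescent reporter acGFP1. All 4 libraries thus come from cells that carried a nuclear SRP9 transgene, were selected with Geneticin and were sorted for the reporter. Each variant gave 1 library of RNA precipitated with its tagged SRP9 (RNA immunoprecipitation, RIP) and 1 library of whole-cell RNA from that same experiment (input). No library from untransfected cells, from cells with the vector alone or from a precipitation without the tag was analysed here. The labels describe no clonal line and no replicate cultures, so every group is 1 library.

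SRP9 is a small protein that pairs with SRP14 on the Alu domain of the signal recognition particle's RNA. Replication-dependent histone mRNAs are made mainly in S phase, when new DNA is packed into nucleosomes. They are unusual among mRNAs in that most end in a conserved stem-loop, bound by the stem-loop binding protein SLBP, and not in a poly(A) tail, although several of these genes can also give polyadenylated transcripts. H2A, H2B and H4 are core histones around which DNA is wrapped, and H1 proteins bind the linker DNA where it enters and leaves the nucleosome. The genes lie in clusters, many in divergent H2A and H2B pairs, and the main transcripts hold no intron. RefSeq nevertheless lists more than 1 curated transcript for 3 of the members, H2BC4, H2BC5 and H2BC12.

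The upstream sequences show what the members have in common beyond their name. RefSeq promoter windows (GRCh38.p14, 250 bases before to 50 after the start) were matched by symbol for 9 of the 10 genes (not H4C3). Of these, 8 are on chromosome 6 and H2BC21 is on chromosome 1. The 4 linker histone genes are shown first, from 10 bases before the motif AAACACA (the H1 box of linker histone genes) to the base before the start. The stretches are chr6:26056471-26056599 on the minus strand for H1-2, chr6:26234988-26235116 on the minus strand for H1-3, chr6:26156202-26156328 on the plus strand for H1-4 and chr6:27867589-27867715 on the minus strand for H1-5. Capitals mark the H1 box AAACACA, the CCAAT box, the octamer ATTTGCAT and the TATA-like letters TATANA, each searched on both strands.
H1-2: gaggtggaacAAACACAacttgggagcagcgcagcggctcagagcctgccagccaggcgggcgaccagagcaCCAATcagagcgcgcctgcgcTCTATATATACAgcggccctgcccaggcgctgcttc
H1-3: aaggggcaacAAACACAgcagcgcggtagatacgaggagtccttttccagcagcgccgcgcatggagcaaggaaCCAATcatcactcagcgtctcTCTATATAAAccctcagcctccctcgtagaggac
H1-4: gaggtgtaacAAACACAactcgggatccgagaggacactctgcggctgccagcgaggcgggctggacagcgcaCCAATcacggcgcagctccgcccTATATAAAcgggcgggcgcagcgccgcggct
H1-5: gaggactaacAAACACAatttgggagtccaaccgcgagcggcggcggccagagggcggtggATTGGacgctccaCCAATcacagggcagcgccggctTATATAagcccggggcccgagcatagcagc

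The H2A and H2B genes are shown because their motifs differ from those of the linker histone genes and because H2AC6 and H2BC4 start from 1 shared stretch. The starts of this divergent pair lie 246 bases apart, and the stretch between them (chr6:26123927-26124171) is printed on the plus strand, in the direction of H2AC6. For H2BC12 (chr6:27146856-27146964, minus strand) and H2BC21 (chr1:149886683-149886788, minus strand) the stretch runs to the base before the start.
H2AC6 and H2BC4: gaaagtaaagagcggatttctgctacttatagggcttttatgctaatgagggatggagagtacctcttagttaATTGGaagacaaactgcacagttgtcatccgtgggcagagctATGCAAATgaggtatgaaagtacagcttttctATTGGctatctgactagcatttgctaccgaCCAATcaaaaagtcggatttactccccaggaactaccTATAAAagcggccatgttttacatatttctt
H2BC12: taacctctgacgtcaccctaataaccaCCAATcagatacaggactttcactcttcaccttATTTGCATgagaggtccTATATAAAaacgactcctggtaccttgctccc
H2BC21: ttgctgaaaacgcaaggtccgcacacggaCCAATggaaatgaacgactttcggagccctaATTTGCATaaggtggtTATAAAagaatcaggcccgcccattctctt

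AAACACA was present in the windows of all 4 linker histone genes and in none of the windows of the 5 H2A and H2B genes, against 5.64% of the 35116 windows in the table. The octamer ATTTGCAT, known from H2B promoters, was present in 4 of the 5 H2A and H2B genes (not H2BC5) and in no linker histone gene, against 1.77% of all windows. CCAAT was present in all 9 genes, against 34.6% of all windows, and TATANA in all 9, against 19% of all windows. The windows of H2AC6 and H2BC4 hold the same octamer, CCAAT and TATANA matches, those of the shared stretch, so these counts include each such site for both genes. The 1 TATANA match of this pair begins at -31 from the start of H2AC6 and at -220 from that of H2BC4. Neither of these motifs overlaps the octamer or AAACACA in the stretches shown. These matches describe the sequences only.

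RIP of variant 1 held 3921361 counts in all and RIP of variant 2 held 5211354, while the inputs held 50454080 and 58815384. RIP of variant 2 also had a count for more IDs than RIP of variant 1, 51589 against 44658. The inputs, with their larger totals, had a count for fewer IDs, 28372 with variant 1 and 26720 with variant 2. RIP counts were thus spread over more IDs. The part of this spread in a lower RIP share of abundant genes was not tested. The reference table used here pairs none of its 59792 genes with an Ensembl ID. The level of SRP9 itself, marker genes of the cell line, other histone genes and the genes of histone mRNA processing were therefore not analysed here. No batch is named in the labels. Values are given as CPM, counts scaled to the library total, with exact 95% Poisson intervals that cover counting error only. Reads of amplified libraries are not independent molecules, and the intervals are too narrow if both reads of a fragment were counted.

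Together the 10 genes took 0.409% of the counts in the input of variant 1 and 0.383% in the input of variant 2. In the RIP libraries they took 0.105% (95% exact binomial interval 0.102% to 0.108%) with variant 1 and 0.188% (0.185% to 0.192%) with variant 2. These 10 genes thus gave a smaller share of the counts in RIP than in whole-cell RNA with both variants. Their share was larger in RIP of variant 2 than in RIP of variant 1. Each of the 10 genes followed the same order, with both inputs above RIP of variant 2 and RIP of variant 2 above RIP of variant 1. Most of the 1538 other tested IDs of like input count, defined below, were also lower in RIP. On the TMM scale explained below, 98.9% of them were at least 2-fold lower with variant 1 and 99.1% with variant 2. Over all tested IDs the shares were 23.1% and 21.2%. RIP of variant 2 exceeded RIP of variant 1 in 46.2% of IDs of like input count and 51.1% of all tested IDs.

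H1-5 (ENSG00000184357), a linker histone, had 1101 counts in RIP of variant 1, 2292 in RIP of variant 2, and 45231 and 51660 in the respective inputs. These counts correspond to 281 CPM (264 to 298) and 440 CPM (422 to 458) in RIP, and to 896 and 878 CPM in the inputs. The inputs were nearly level, and both RIP libraries lay below them. H1-2 (ENSG00000187837), the linker histone also called H1.2, had 559 and 1460 counts in RIP and 36233 and 37733 in the inputs, or 143 and 280 CPM against 718 and 642 CPM. Its RIP level with variant 2 was 1.97 times that with variant 1 (95% counting interval 1.78 to 2.17, on library totals), while its input was lower with variant 2.

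H1-4 (ENSG00000168298), the linker histone H1.4, had 665 and 1590 counts in RIP and 30126 and 32531 in the inputs, or 170 and 305 CPM against 597 and 553 CPM. H1-3 (ENSG00000124575), the linker histone H1.3, had 300 and 603 counts in RIP and 12708 and 13338 in the inputs, or 76.5 and 116 CPM against 252 and 227 CPM. In both genes, as in all 10, both RIP values lay below both inputs. In the test below, 99.5% of IDs of like input count and 15.8% of all tested IDs were called lower in RIP. H1-3 had the smallest step from RIP of variant 1 to RIP of variant 2 among the 10 genes, at 1.51 times (1.31 to 1.74).

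Among the core histone genes, H2BC12 (ENSG00000197903), which encodes an H2B, had 556 and 1176.17 counts in RIP and 24736.47 and 28740.99 in the inputs, or 142 and 226 CPM against 490 and 489 CPM. H2BC4 (ENSG00000180596), another H2B gene, had 458 and 967 counts in RIP and 23507 and 23459.6 in the inputs, or 117 and 186 CPM against 466 and 399 CPM. H2BC5 (ENSG00000158373), a neighbour of H1-4, had 200 and 466 counts in RIP and 11841.2 and 11727.1 in the inputs, or 51.0 and 89.4 CPM against 235 and 199 CPM. These 3 H2B genes had similar steps between the RIP libraries, from 1.59 to 1.75 times higher with variant 2.

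H4C3 (ENSG00000197061), which encodes the same H4 protein as most other H4 genes, had 128 and 376 counts in RIP and 8183 and 8924 in the inputs, or 32.6 and 72.2 CPM against 162 and 152 CPM. H2AC6 (ENSG00000180573), an H2A gene, had 107 and 494 counts in RIP and 7391 and 9796 in the inputs, or 27.3 CPM (22.4 to 33.0) and 94.8 CPM (86.6 to 104) against 146 and 167 CPM. H2BC21 (ENSG00000184678), the H2B gene on chromosome 1, had 44.5 and 399 counts in RIP and 6315.26 and 7343.14 in the inputs. Its level was 11.3 CPM (8.26 to 15.2) in RIP of variant 1 and 76.6 CPM (69.2 to 84.5) in RIP of variant 2, against 125 CPM in each input. RIP of variant 1 was thus the low library for H2AC6 and H2BC21, and it was further below the other RIP library than for any other member.

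**Figure D1:**
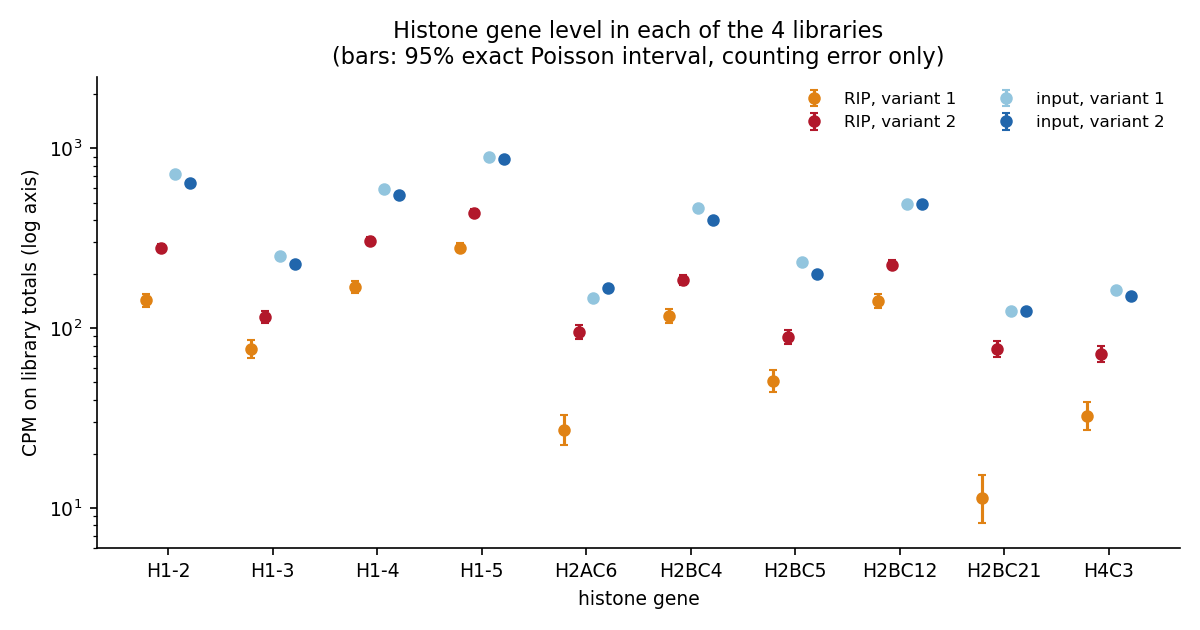
Level of each histone gene in the 4 libraries, in CPM of the library total on a log axis, with 95% exact Poisson intervals for counting error. Each gene has both inputs at the top, RIP of variant 2 below them and RIP of variant 1 lowest, with H2BC21 at 11.3 CPM as the lowest value.

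Fractions of a read appeared in the counts of the 4 H2B genes, as arises when a read is shared between similar genes, and the other 6 members had whole counts in every library. H2B genes have near-identical coding sequences, so reads may have been exchanged between copies. No other ID repeated the values of a member across the 4 libraries. Gene lengths of the counting annotation were not used here, so levels are compared between libraries for 1 gene at a time and not between genes.

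RIP was compared with input over both variants to ask which of these mRNAs were enriched or depleted with nuclear SRP9. The main scale was TMM, which scales libraries by a trimmed mean of the log ratios between them and here did not bring the median of all tested IDs to 0. On it, all 10 genes were lower in RIP, with log2 fold changes from -2.86 (H1-2) to -2.45 (H1-4) and a median of -2.64. All 10 were called lower by edgeR's quasi-likelihood test with Benjamini-Hochberg adjustment, with adjusted p from 0.0015 (H2BC4) to 0.021 (H2BC21). Over all 41622 IDs tested, 15.8% were called lower and the median log2 fold change was 3.65. Most tested IDs are of far lower input abundance, however, and the members' call rate has to be read against IDs like them. Among the 1538 other tested IDs with a summed input count between 13658.4 (that of H2BC21) and 96891 (that of H1-5), 99.5% were called lower and the median was -3.05, with quartiles of -3.57 and -2.47. The lower call of the 10 histone genes is therefore at the background of IDs of like input count. These IDs may differ from the histone genes in length, introns and poly(A) tails, which were not examined. The library preparation is not given, so it is not known how far transcripts without a poly(A) tail were counted.

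The 2 variants stand in for the samples of each fraction in this test. They are different constructs, so the p-values measure only the spread between these libraries. With the construct as a replicate block, all 10 genes were again called lower, as were 5379 of the 41622 IDs tested. The share among IDs of like input count was not taken in that fit. On library totals the 10 log2 fold changes lay between -1.66 and -1.25, and H2AC6 (-1.32, edgeR adjusted p = 0.078) and H2BC21 (-1.47, adjusted p = 0.14) were no longer called. The median of all tested IDs moved by a similar amount, from 3.65 to 4.85. Fitting only the 15436 IDs that reached 50 counts in each input gave nearly the same values as library totals, with adjusted p of 0.061 for H2AC6 and 0.11 for H2BC21. Leaving out a RIP library moved the fold by over 1.5 times for 3 genes. The log2 fold change of H2BC21 was -1.92 without RIP of variant 1 and -4.63 without RIP of variant 2. That of H2AC6 was -1.93 and -3.67 in the same order, and that of H4C3 was -3.42 without RIP of variant 2.

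**Figure D2:**
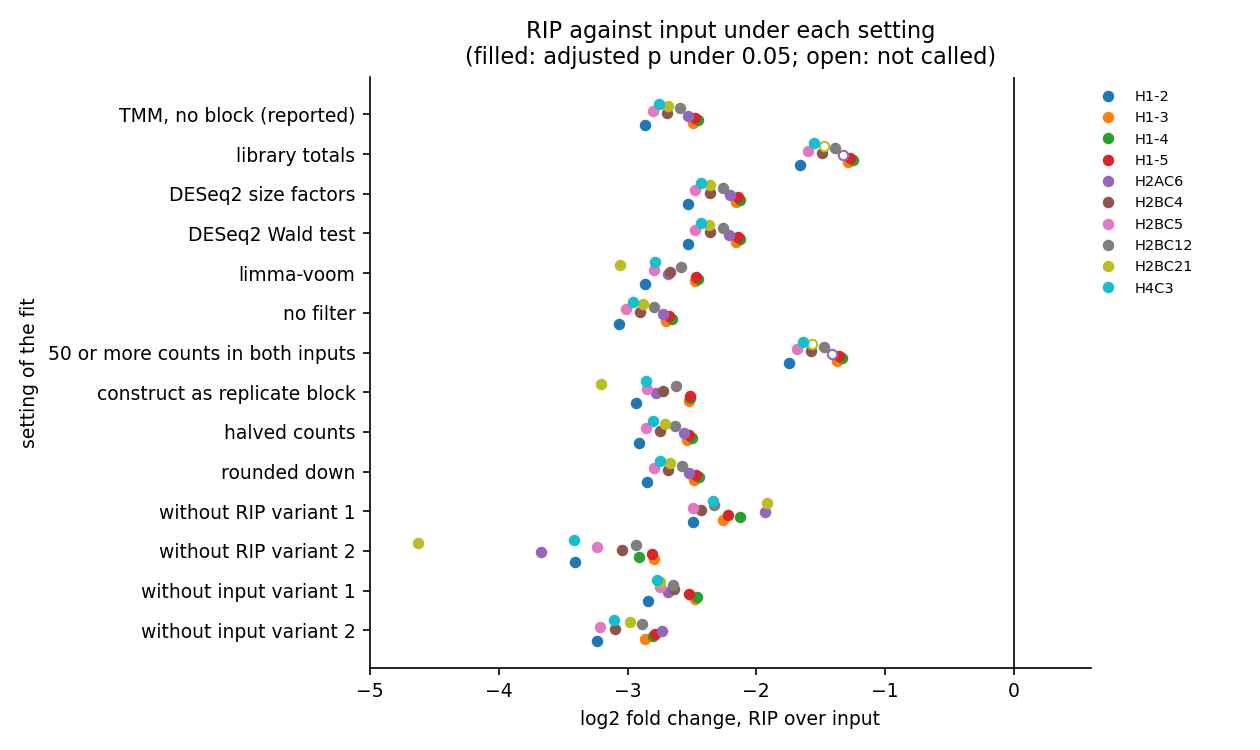
Log2 fold change of RIP over input for each histone gene (colour) under each setting of the fit (rows), with filled points for an adjusted p under 0.05. All points lie below 0, and the 4 open points are H2AC6 and H2BC21 on library totals and in the fit of IDs that reached 50 counts in each input.

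Each RIP library was then set against the input of its variant. These ratios rest on 1 library a side and have no test. With variant 1, the histone genes were 7.24 times (H1-5) to 25.3 times (H2BC21) lower in RIP than in input on TMM scaling, with a median log2 ratio of -3.28. With variant 2 they were 3.67 times (H2BC21) to 5.16 times (H1-2) lower, with a median of -2.21. H2BC21 thus had the lowest ratio of the 10 genes with variant 1, where it had 44.5 counts in RIP, and the highest with variant 2. Its log2 counting interval with variant 2 (-2.03 to -1.73) overlaps that of H2AC6 (-2.12 to -1.85), among others, so its rank there is not resolved. The 4 linker histone genes had medians of -2.95 and -2.16 with variants 1 and 2, and the 6 core histone genes -3.43 and -2.26. With variant 1 the 4 linker histone genes lay between -3.51 and -2.85, and with variant 2 the spread over all 10 genes was narrower, from -2.37 to -1.88.

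All 10 genes were at least 2-fold lower than input with each variant, against 23.1% of all tested IDs with variant 1 and 21.2% with variant 2. Among IDs of like input count the shares were 98.9% and 99.1%, so being 2-fold lower is again near the background. The position within those IDs differed between the variants. With variant 1 the like IDs had a median log2 ratio of -3.04 and quartiles of -3.68 and -2.42, and 9 of the 10 histone genes lay between these quartiles, with H2BC21 below them. With variant 2 the median was -3.08 and the quartiles -3.62 and -2.50, and all 10 histone genes lay above the upper quartile. The positions were the same on library totals, where the ratios were smaller. There 5 of the 10 genes were at least 2-fold lower with variant 2, against 11.9% of all tested IDs and 85.6% of IDs of like input count.

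**Figure D3:**
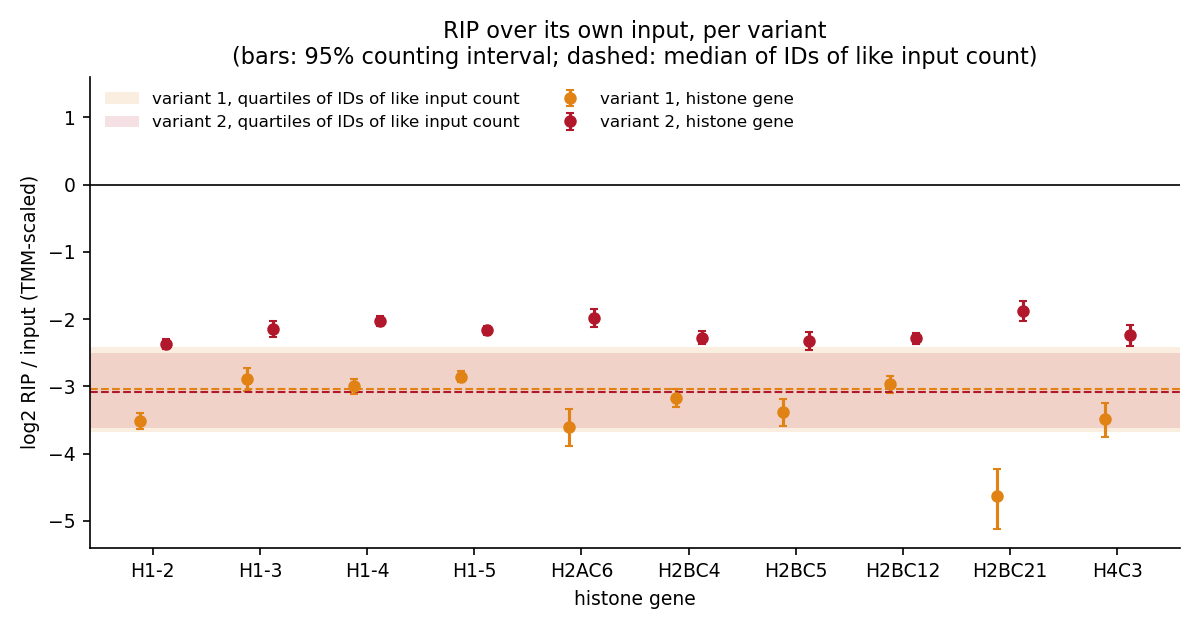
Log2 ratio of RIP over its own input on TMM scaling for each histone gene and variant, with 95% counting intervals; bands and dashed lines give the quartiles and medians of 1538 other IDs of like input count. The points of variant 1 lie in the band except for H2BC21, and all 10 points of variant 2 lie above it.

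The RIP libraries of the variants were compared directly. All 10 histone genes were higher in RIP of variant 2 than in RIP of variant 1, against 51.1% of all tested IDs and 46.2% of IDs of like input count. The median log2 difference was 0.81, which is 1.76 times, and the 95% counting interval of every gene lay above 0. IDs of like input count had a median of -0.07 and quartiles of -0.47 and 0.42, and all 10 histone genes lay above the upper quartile. The smallest difference was 0.58 (0.38 to 0.79) for H1-3, and its interval reaches below that quartile. The largest were 2.73 (2.30 to 3.24) for H2BC21, 1.78 for H2AC6, whose interval is given as folds further on, and 1.13 (0.84 to 1.43) for H4C3. These 3 genes were at least 2-fold higher with variant 2, as were 22.8% of all tested IDs and 8.32% of IDs of like input count. The other 7 genes lay between 0.58 and 0.96, and the intervals of neighbours in that order overlap. The 3 genes with the largest differences are also those with the fewest counts in RIP of variant 1, and the part of low counts in the size was not tested.

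The inputs hardly differed. The log2 difference of variant 2 from variant 1 in whole-cell RNA lay between -0.26 (H2BC5) and 0.16 (H2AC6), with a median of -0.13. It was below 0 for 9 of the 10 genes, against 57.7% of IDs of like input count and 36.7% of all tested IDs, many of which have a count in neither input. IDs of like input count had quartiles of -0.12 and 0.07, so that 5 histone genes lay below the lower quartile and H2AC6 above the upper. On TMM scaling the counting interval included 0 for H2BC21 alone. On library totals that of H2BC12 did so as well (-0.029 to 0.020). For these small input differences, the share of cells in S phase, histone mRNA per cell and variation between single libraries cannot be told apart.

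H2AC6 and H2BC4, whose starts share the printed stretch, had different ratios between the variants. In the inputs H2AC6 was 1.14 times as high with variant 2 as with variant 1 (95% counting interval 1.10 to 1.17, on library totals), and H2BC4 was 0.856 times as high (0.841 to 0.872). In the RIP libraries both were higher with variant 2, by 3.47 times (2.81 to 4.32) for H2AC6 and 1.59 times (1.42 to 1.78) for H2BC4. The counting intervals of the 2 genes do not overlap in either fraction. They cover counting error only, with 1 library per side, so a difference between the genes was not tested. H2AC6 had 107 counts in RIP of variant 1, and the input of variant 2 holds a fractional count for H2BC4.

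**Figure D4:**
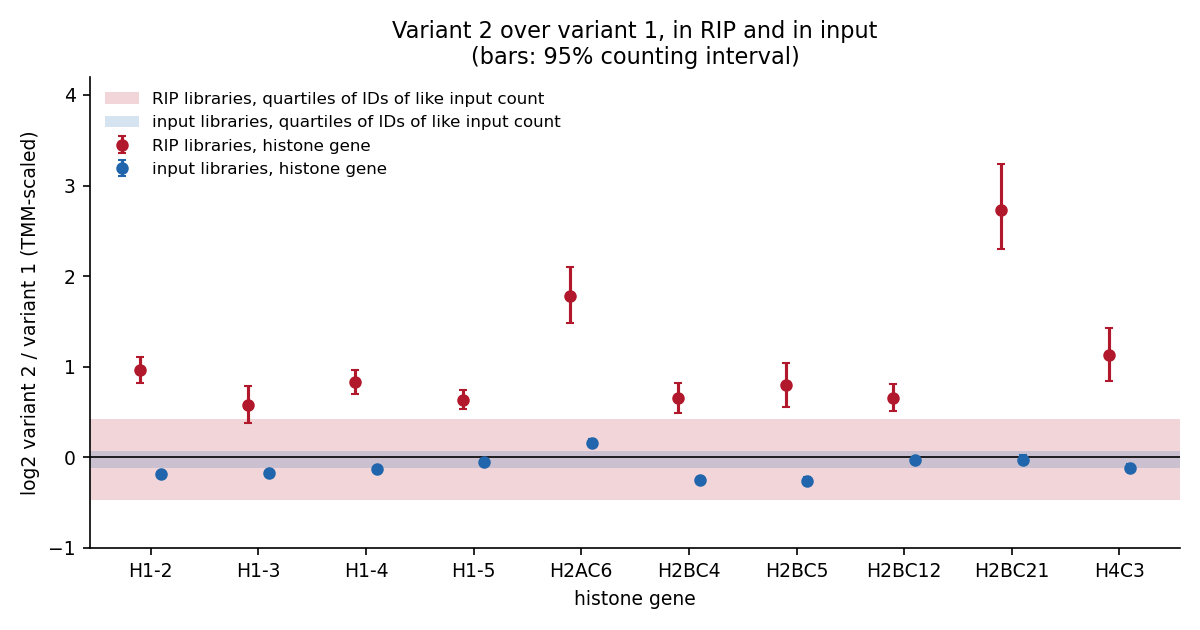
Log2 ratio of variant 2 over variant 1 on TMM scaling for each histone gene, in the RIP libraries (red) and in the inputs (blue), with 95% counting intervals and with the quartiles of 1538 other IDs of like input count as bands. All RIP points lie above the RIP band, from 0.58 to 2.73, while the inputs lie between -0.26 and 0.16.

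With the inputs taken into account, the log2 ratio of RIP to input was higher with variant 2 for all 10 genes, by 0.68 (H2BC12 and H1-5) to 2.75 (H2BC21) with a median of 1.01. This value uses the same libraries as the comparisons above and is no further evidence for them. The difference was at least 2-fold for 5 genes, H1-2, H2AC6, H2BC5, H2BC21 and H4C3, against 29.4% of all tested IDs and 8.97% of IDs of like input count. None of the differences between variants could be checked against replicate libraries. RIP of variant 2 had 5211354 counts and RIP of variant 1 had 3921361, and the part of depth or of library yield in the difference was not tested.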

How the data were processed

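RNA of MiaPaCa cells with nuclear SRP9 variant 1 or 2 was sequenced from RIP and input, 1 library each. Per the submitters' processing notes, HISAT2 2.1.0, featureCounts and Subread 2.0.0 were used with GRCh38.p13. Not given in the sources used here are the annotation release, strand setting, treatment of multi-mapping reads and library preparation. Estimated counts per Ensembl ID, not normalized, were deposited, with fractions in 13.9% to 18.0% of values. Members and lists were chosen with earlier results of these data known. All 10 members were named, in order of their roles.

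Counts were rounded and tested with edgeR 4.0.16 in R 4.3.3 (quasi-likelihood, RIP against input, TMM, filterByExpr with a minimum count of 10), leaving 2 residual degrees of freedom, with calls at adjusted p under 0.05 (Benjamini-Hochberg). Since each input is labelled as that of 1 RIP experiment, a fit with a construct block and 1 residual degree of freedom was run as the paired design. Log2 ratios of single libraries used a prior count of 2 and have no test. Their 95% intervals are exact and conditional on the summed count. Alternatives used DESeq2 1.42.0 and limma 3.58.1. The fit was tested on simulated data in which few IDs differed between RIP and input. That test does not cover a shift of most IDs, as seen in these libraries. Depth allowed a level of 0.765, 0.576, 0.0595 and 0.0510 CPM at 3 counts (RIP of variants 1 and 2, then inputs).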

Additional observations from a re-analysis of the deposited data

How the results depend on the processing

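In 13 other settings of the test, the 10 genes kept a lower RIP level, and the number called lower was 10 in all but 2 settings, library totals and the fit of IDs that reached 50 counts in each input, with 8 each. With the construct as replicate block all 10 were called, among 5379 lower calls over the 41622 IDs tested. Over all IDs, the 20595 higher calls became 8289 with the replicate block and 3418 when IDs that reached 50 counts in each input were fitted alone, and ranged from 938 (without RIP of variant 1; 1082 without RIP of variant 2) to 18394 when 1 library was left out. The 6583 lower calls became 3213 on library totals and 3655 in the fit of IDs that reached 50 counts in each input, and ranged from 5275 to 6452 when 1 library was left out. The spread of the fraction left with 1 library is then taken from the other fraction. Fewer IDs are tested in the smaller fit; for the rest the cause was not tested. The median log2 ratio of RIP over input moved from -3.28 to -2.10 (variant 1) and from -2.21 to -1.03 (variant 2) on library totals, and to -2.16 and -1.09 with TMM over IDs that reached 50 counts in each input. The median between the inputs moved from -0.13 to -0.10 on library totals. Over the 6 members with whole counts, an alternative chosen after seeing the data, the median was -2.16 for RIP over input of variant 2 and 0.90 between the RIP libraries. No value turned direction. Depth limits RIP of variant 1 most, with 44.5 counts for H2BC21.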
